A study of Mus musculus with 24 samples.

Results

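Complex I (NADH:ubiquinone oxidoreductase) is the first enzyme of the mitochondrial respiratory chain, and its nuclear-encoded subunit genes were followed here through oocyte maturation and the first embryonic division. They were taken as the protein-coding genes of the GENCODE M21 annotation whose symbol is Ndufa, Ndufb, Ndufc, Ndufs or Ndufv followed by a digit, or Ndufab1. That rule gave 38 of the 55487 genes in the files: 16 of the matrix arm, 19 of the membrane arm, Ndufab1, which sits in both arms, and Ndufa4 and Ndufa4l2, which carry the family name. The samples came from Nlrp14 knockout (KO) and wild-type (WT) mice. Each sample pooled 5 cells or embryos, and 4 stages were taken: the oocyte with its germinal vesicle (GV), the mature oocyte arrested in metaphase of meiosis II (MII), the zygote at pronuclear stage 5 (PN5) and the 2-cell embryo (2cell). Each of the 8 groups had 3 libraries, labelled as biological replicates. The sources used here do not give the deleted part of Nlrp14, the strain, the age of the mice or the genotype of the fathers.

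Complex I takes electrons from NADH, passes them along a chain of iron-sulfur clusters to ubiquinone and pumps protons out of the matrix. The matrix arm binds NADH and quinone, the membrane arm carries the pumps, and the nuclear genome supplies the matrix-arm core and all accessory subunits, while the proton-pumping core is encoded by mitochondrial DNA. Fully grown oocytes are known to transcribe little and to live on stored messenger RNA, and in mice the embryo's own genome becomes widely active at the 2-cell stage. Nuclear respiratory genes are known to be bound near their start by NRF1, by the ETS-family GA-binding protein and by YY1.

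Start regions were read first, since the members split later in the 2-cell embryo. RefSeq sequences from 250 bases before to 50 bases after the start (GRCm38.p6) matched 33 of the 38 members. The YY1 letters AAGATGGC, on either strand, were found in 7 of the 33 (21.2%), against 3.19% of 27025 promoters of the same length. All 7 copies lay on the gene's own strand, with their first base 23 to 39 bases after the start, and the letters include an ATG. The 7 stretches are shown because they hold the same letters at nearly the same place in genes whose calls at the 2-cell stage were not all alike. Capitals mark the YY1 letters.
Ndufa3: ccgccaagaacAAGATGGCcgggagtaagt
Ndufa9: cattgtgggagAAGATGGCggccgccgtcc
Ndufb8: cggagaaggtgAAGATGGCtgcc
Ndufc1: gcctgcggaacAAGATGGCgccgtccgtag
Ndufs4: ttgcctacaggAAGATGGCggcggtc
Ndufs6: gggtcaccggcAAGATGGCggcggtgct
Ndufs7: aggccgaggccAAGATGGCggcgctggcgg
In GRCm38.p6 they lie at chr7:3617384-3617413 (Ndufa3, + strand), chr6:126849097-126849126 (Ndufa9, - strand), chr19:44555393-44555415 (Ndufb8, - strand), chr3:51408915-51408944 (Ndufc1, - strand), chr13:114388045-114388070 (Ndufs4, - strand), chr13:73328433-73328460 (Ndufs6, - strand) and chr10:80249462-80249491 (Ndufs7, + strand). The ETS letters CCGGAAG occurred in 4 of the 33 members (12.1%), against 9.93% of all promoters. The NRF1 motif occurred in 1 (3.03% against 1.07%) and CCAAT in 10 (30.3% against 41.1%), both strands searched. The motifs were chosen with some of these promoters in view, and a match is a description of letters, not a bound site.

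A pair of start regions is printed at greater length, from 100 bases before to 30 after the RefSeq start. The first belongs to Ndufs8, which had the largest rise of all members on the log2(FPKM + 1) scale between the WT zygote and the WT 2-cell embryo, and the second to Ndufa1, which was called lower in KO libraries at MII, PN5 and the 2-cell stage. Capitals mark CCAAT at both of its places and the ETS letters, read here from the other strand as CTTCCGG, in Ndufs8. None of the 4 motifs was found in the Ndufa1 stretch.
Ndufs8: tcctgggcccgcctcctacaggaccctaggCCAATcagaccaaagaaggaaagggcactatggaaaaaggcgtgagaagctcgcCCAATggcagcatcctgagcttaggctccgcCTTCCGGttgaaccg
Ndufa1: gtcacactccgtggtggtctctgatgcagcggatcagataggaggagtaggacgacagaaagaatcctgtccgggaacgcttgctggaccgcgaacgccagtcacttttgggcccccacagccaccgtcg
They lie at chr19:3912745-3912874 and chrX:37191209-37191338 (GRCm38.p6), both read from the - strand.

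The values were FPKM, fragments divided by transcript length and by the library's mapped total, as deposited. Depth implied by the smallest steps between values was 7.65 to 12.3 M fragments per library. Nlrp14 averaged 28.4 FPKM in KO and 1937 FPKM in WT GV oocytes, 19.6 FPKM in KO and 391 FPKM in WT MII oocytes, 6.8 FPKM in KO and 209.8 FPKM in WT zygotes, and 26.4 FPKM in KO and 106.1 FPKM in WT 2-cell embryos, without overlap at any stage. All 11 oocyte markers reached a mean of 1 FPKM in each of the 8 groups, and all 7 markers of the 2-cell embryo did so in both 2-cell groups. Of 17 markers of granulosa and cumulus cells, 1 to 4 reached 1 FPKM in a group, and their summed level was at most 41.9 FPKM in any library. In some libraries the level of a gene depended on its length more than in the others of the stage. The slope of deviation from the stage mean on log2 length was -0.13 in KO GV replicate 3, -0.10 in KO MII replicate 2, and -0.17 and -0.07 in WT PN5 replicates 1 and 2, against 0.06 to 0.09 in the KO PN5 libraries. The members are short: those tested at PN5 had a median exon length of 1271 nt, against 3120 nt over all tested genes. The part that these slopes play in the results on GV, MII and PN5 was not tested beyond the fits without a length trend given for each of those stages.

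Together the members were most abundant in GV oocytes, where 37 of them in KO and all 38 in WT averaged 1 FPKM or more. Their summed level was 2699 ± 659 FPKM in KO and 2195 ± 87.6 FPKM in WT GV oocytes (SD, n = 3 each), and 31 genes in KO and 28 in WT reached a mean of 10 FPKM or more. The sum was 196 ± 50.6 FPKM in KO and 204 ± 20.6 FPKM in WT MII oocytes. At PN5 it stood at 149.5 ± 13.2 FPKM in KO and 286 ± 55.2 FPKM in WT zygotes, and at the 2-cell stage at 461 ± 37.8 FPKM in KO and 776 ± 106 FPKM in WT embryos. The highest KO library lay below the lowest WT library at PN5 and at the 2-cell stage, while the genotypes overlapped at GV and MII. FPKM are shares of a library, so that fewer transcripts per embryo and more of other transcripts cannot be told apart.

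**Figure D1:**
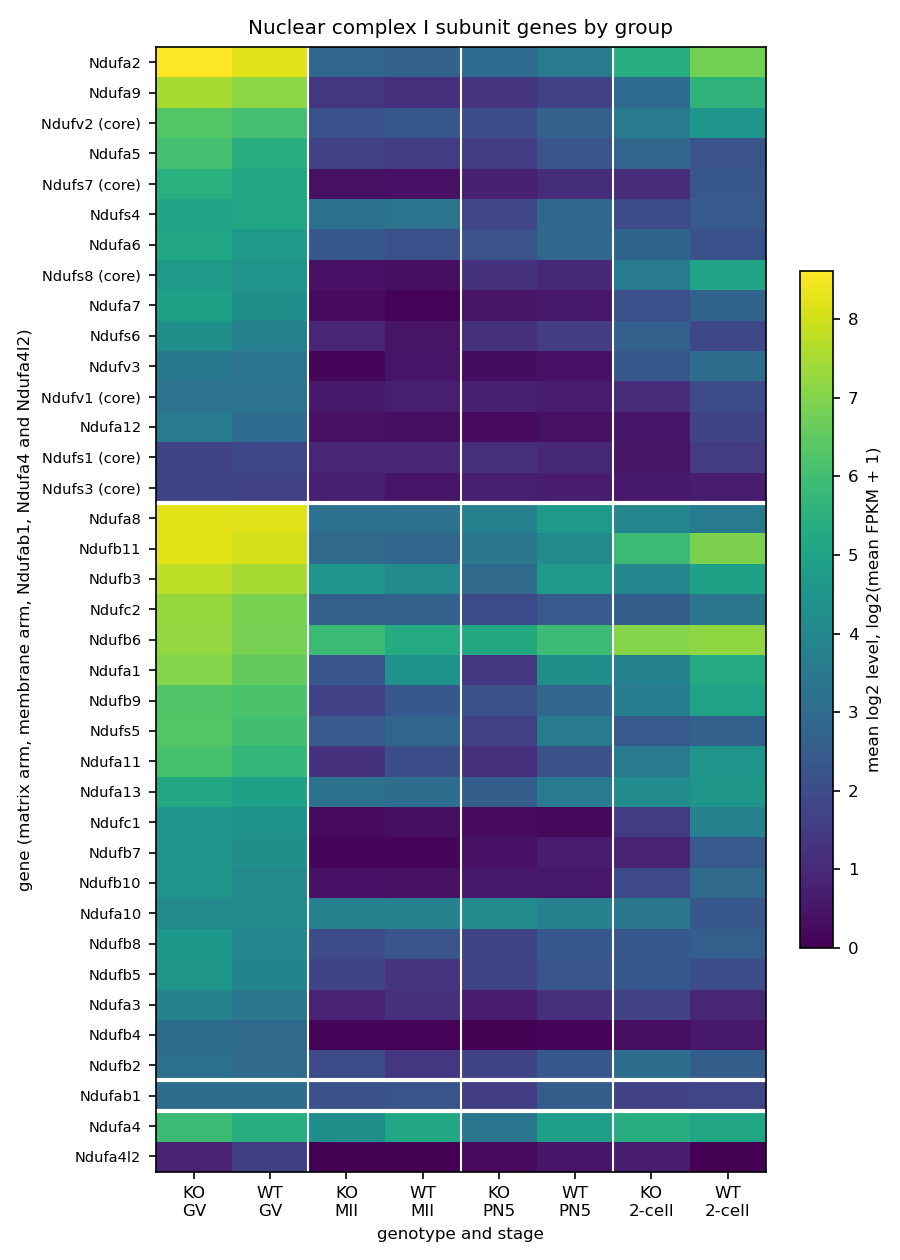
Mean level of 37 nuclear complex I genes in the 8 groups, as the colour of log2(mean FPKM + 1), with KO left of WT at each stage; rows run by arm (matrix, membrane, Ndufab1, then Ndufa4 and Ndufa4l2) and by level in WT GV oocytes. Most rows are bright at GV and dark at MII and PN5, and in the 2-cell columns Ndufa9, Ndufc1 and Ndufs8 are darker in KO than in WT.

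A few genes held most of the members' FPKM as listed, and they were not the same ones throughout. In GV oocytes the top 5 were Ndufa2, Ndufa8, Ndufb11, Ndufb3 and Ndufa9 in both genotypes, with 52.0% of the members' summed FPKM in KO and 53.6% in WT. From MII onwards the gene with the highest FPKM in every group was Ndufb6, a membrane-arm subunit, at a mean of 58.0 FPKM in KO and 38 FPKM in WT MII oocytes and 132.5 FPKM in KO and 145.5 FPKM in WT 2-cell embryos. These ranks and shares leave out the near-identical copies of some members described below. With its copies, Ndufab1 would rank first in every group. That sum averaged 1018 FPKM in KO and 933 FPKM in WT GV oocytes, and 252 FPKM in KO and 263 FPKM in WT 2-cell embryos. At the other end, Ndufa4l2, a relative of Ndufa4 known from hypoxic cells, was listed at 0 in all 6 MII libraries and stayed at 2.57 FPKM or less in every library. Ndufa4, whose protein is now counted as a subunit of cytochrome c oxidase (complex IV), was among the 5 highest in both genotypes at MII and PN5. At the 2-cell stage it was among them in KO only. It stood at 36.6, 49.3 and 34.7 FPKM in KO 2-cell embryos, against 29, 26 and 44.4 FPKM in WT 2-cell embryos.

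In GV oocytes no member passed the test between genotypes. Of 38 tested, 0 were called (limma on log2(FPKM + 1), Benjamini-Hochberg adjusted p under 0.05), where 0.043% of all tested genes were, 0.00859% higher, and 4 had an unadjusted p under 0.05. The median log2 difference of the members was 0.23, against -0.08 over all tested genes, and 32 of the 38 had a positive difference. In 11 of them all KO libraries lay above all WT libraries, against 8.14% of all tested genes. Part of the KO sum was carried by 1 library: it was 2262, 2377 and 3457 FPKM in KO replicates 1 to 3. Without KO replicate 3, the library with the length slope of -0.13, 2 members, Ndufb5 and Ndufb8, both membrane-arm subunits, were called higher (log2 differences 0.39 and 0.47, adjusted p = 0.0448 and 0.036), and the members' median was 0.11. Removing a trend with gene length left 0 calls and a median of 0.20. In the same libraries the summed level of the 11 oocyte markers ran from 19627 to 22259 FPKM in KO and from 15657 to 17134 FPKM in WT GV oocytes, and that of the 6 markers of sperm and spermatids from 9.02 to 10.5 FPKM in KO and from 12 to 12.7 FPKM in WT. Their part in the members' difference was not tested.

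At MII a single member was called. Ndufa1 (chromosome X, 37187588 to 37191163, - strand), a small membrane-arm subunit needed early in the assembly of that arm, stood at 3.9, 4.9 and 2.93 FPKM in KO MII oocytes, against 21.3, 23.9 and 14.2 FPKM in WT MII oocytes. The KO libraries all lay below the WT libraries, and the KO mean was 19.8% of the WT mean (log2 difference -2.07, SE 0.24, adjusted p = 0.013, limma). It was 1 lower of 24 members tested, against 2.28% of all tested genes called, 1.96% lower and 0.32% higher. In 3 membrane-arm members all KO libraries lay above all WT libraries, against 8.35% of all tested genes, and in 3 they lay below, against 26.1%. The implied fragments behind the KO values were 18, 23 and 13, against 88, 113 and 73 in WT, for a gene with 419 nt of exon and 1 transcript. Ndufa1 kept its sign but lost the call without WT replicate 1 (adjusted p = 0.096), without WT replicate 2 (0.064), without KO replicate 3 (0.053) and with no filter on low values (0.078). Without KO replicate 1 the count was 4, with Ndufb2, Ndufb3 and Ndufb6, all of the membrane arm, called higher. The 14 members not tested at MII, Ndufs1, Ndufs3, Ndufs7, Ndufs8 and Ndufv1 of the core among them, reached 1 FPKM in at most 2 of the 6 libraries. Removing a length trend left Ndufa1 as the only call. The oocyte markers summed to 12525 to 16717 FPKM in KO and 11413 to 11624 FPKM in WT MII oocytes, and their part in the result was not tested.

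At PN5 most tested members lay lower in KO zygotes, and 4 of the 26 tested passed, all lower, where 5.53% of all tested genes were called lower, 0.569% higher and 6.1% in either direction. The median difference was -0.65, against 0.01 over all tested genes, with 23 of 26 negative. In 17 of them all KO libraries lay below all WT libraries, against 24% of all tested genes. Of these, 12 belonged to the membrane arm (of 14 tested) 3 to the matrix arm (of 10 tested), and the others were Ndufab1 and Ndufa4. The 12 members not tested were low in both genotypes.

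Ndufa1 was the member with the largest difference, at 1.68, 1.97 and 1.22 FPKM in KO zygotes, against 20.7, 17.6 and 17.6 FPKM in WT zygotes. The groups were far apart, with the KO mean at 8.69% of the WT mean (log2 difference -2.91, SE 0.22, adjusted p = 0.004), on 8, 8 and 5 implied fragments in KO and 97, 68 and 79 in WT. Ndufs5, an intermembrane-space subunit of the membrane arm, had 2.39, 2.25 and 1.6 FPKM in KO zygotes, against 16.9, 7.71 and 6.55 FPKM in WT zygotes (log2 difference -1.79, SE 0.35, adjusted p = 0.037). Ndufab1, the mitochondrial acyl carrier protein, which also serves lipoic acid synthesis, had 2.29, 2.04 and 1.48 FPKM in KO zygotes, against 5.25, 5.2 and 4.09 FPKM in WT zygotes (log2 difference -1.0, SE 0.22, adjusted p = 0.043). For both genes the KO and WT zygotes did not overlap. Ndufa4 stood at 10.3, 9.16 and 8.34 FPKM in KO zygotes, against 35.1, 23.5 and 24.6 FPKM in WT zygotes, again with no overlap (log2 difference -1.47, SE 0.23, adjusted p = 0.034).

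The PN5 calls rest on few libraries. The count was 0 without WT replicate 2, 0 without KO replicate 1, 0 without KO replicate 3, 1 without KO replicate 2 and 15 without WT replicate 3. Ndufa1 alone was called under all 5 scalings tried. Removing a trend with gene length left 4 calls and a members' median of -0.47, and removing trends with length and GC content left 3 calls and a median of -0.61. In the same libraries the summed level of the 11 oocyte markers ran from 8896 to 9300 FPKM in KO zygotes and from 10434 to 17871 FPKM in WT zygotes. The 7 markers of the 2-cell embryo summed to 15.6 to 41 FPKM in KO zygotes, with 2 at a mean of 1 FPKM or more, and to 59.4 to 100.4 FPKM in WT zygotes, with 5. The markers of blood, stroma and oviduct summed to 9.30 to 11.1 FPKM in KO and 2.93 to 6.84 FPKM in WT zygotes, and those of granulosa and cumulus cells to 15.5 to 16.9 FPKM in KO and 17.2 to 20.5 FPKM in WT zygotes. None of these 4 sums overlapped between genotypes, and their part in the result was not tested.

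Several members share long, nearly identical stretches with processed pseudogenes, which are intronless copies elsewhere in the genome, and the deposited files list gene and copy apart. Such copies, at 95% identity or more over at least 200 nt, were found for 9 members. For Ndufab1 the copies Gm4459 and Ndufab1-ps held 99.1% of the joint FPKM in both KO and WT zygotes, and for Ndufs5 the copy BC002163 held 73.7% in KO and 75.0% in WT zygotes. Which locus the reads came from is uncertain, so sums over gene and copies were also tested, a step added after the values were seen. Summed over gene and copies, Ndufab1 stood at 253, 211 and 173 FPKM in KO and 615, 559.9 and 479.9 FPKM in WT zygotes (log2 difference -1.38, adjusted p = 0.034). Ndufs5 stood at 7.89, 10.7 and 5.13 FPKM in KO and 68, 29.2 and 27.4 FPKM in WT zygotes (log2 difference -2.18, adjusted p = 0.036). Neither pair of groups overlapped. Ndufb4, a membrane-arm subunit too low to test alone, was called on the sum with its copy Ndufb4c, at 0.9, 0.837 and 0.832 FPKM in KO and 3.02, 2.23 and 3.43 FPKM in WT zygotes (log2 difference -1.06, adjusted p = 0.037). That sum passed the filter through the WT libraries alone, so it could only come out lower. The copy held 96.6% of it in KO and 96.0% in WT, so the call says little about Ndufb4 itself.

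**Figure D2:**
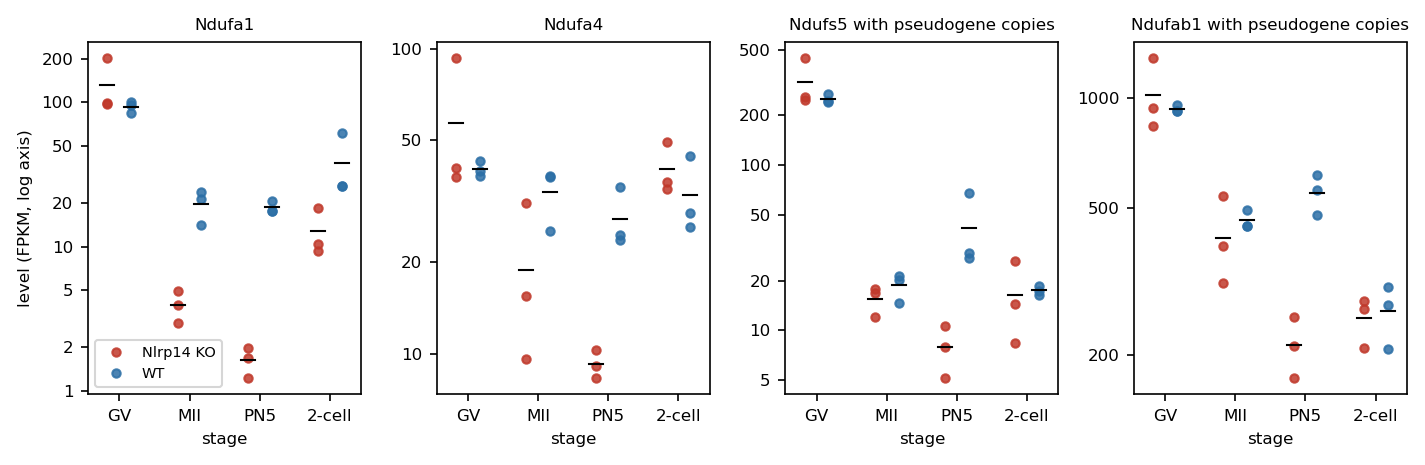
Level in each library (points) and group mean (line) on a log axis in FPKM, KO in red left of WT in blue, for Ndufa1, Ndufa4, and for Ndufs5 and Ndufab1 summed with their pseudogene copies. In PN5 zygotes all 3 KO points lie below all 3 WT points in each panel, and Ndufa1 is apart at MII and the 2-cell stage as well.

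In 2-cell embryos 21 of the 35 tested members differed between genotypes, 18 lower and 3 higher in KO. Among all tested genes 54.3% were called, 40.3% lower and 14.0% higher. The median log2 difference of the members was -0.86, against -0.44 over all genes. All KO libraries lay below all WT libraries for 22 members and above them for 5, against 44.6% and 17.5% of all tested genes. Of the matrix arm, 10 of 15 tested were lower and 2 higher, and of the membrane arm 8 of 18 were lower and 1 higher. Under median-of-ratios scaling, which moved the all-gene median to -0.04, the split was 10 lower and 9 higher. The 10 that were lower under all 5 scalings included Ndufa2, Ndufa9, Ndufa12, Ndufs1 and Ndufs8 of the matrix arm and Ndufb7, Ndufb9, Ndufb10 and Ndufc1 of the membrane arm, and Ndufa10 and Ndufs6 were higher under all 5. The other 8 lower calls, Ndufa1, Ndufa11, Ndufb11, Ndufc2, Ndufs7, Ndufv1, Ndufv2 and Ndufv3, did not pass under median-of-ratios scaling, and Ndufv3 did not pass without length and GC trends either. Ndufa5, the third higher call, did not pass with TPM. The total was 13 without WT replicate 1. Ndufa12, Ndufb7 and Ndufs1 were under 1 FPKM in every KO library. They passed the filter through the WT libraries alone and could only come out lower.

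The electron path itself was represented by the 7 core genes of the matrix arm. The 6 that could be tested were all called lower in KO embryos, where 40.3% of all tested genes were lower and 14.0% higher. Of them, Ndufs7, Ndufv1 and Ndufv2 did not pass under median-of-ratios scaling, and the direction of Ndufs1 was fixed by the filter. The summed level of the 7 core genes, with pseudogene copies left out, was 28 ± 4.06 FPKM in KO and 76.5 ± 10.5 FPKM in WT embryos (SD, n = 3 each). Ndufs8, which carries iron-sulfur clusters, was at 11.2, 10.8 and 10.5 FPKM in KO 2-cell embryos, against 41, 29.2 and 25.9 FPKM in WT 2-cell embryos (log2 difference -1.46, SE 0.22, adjusted p = 0.0011). Every KO library lay below every WT library.

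Ndufs7, which holds the last iron-sulfur cluster before quinone, was measured at 0.477, 2.48 and 0.421 FPKM in KO 2-cell embryos, against 5.6, 3.56 and 3.16 FPKM in WT 2-cell embryos (log2 difference -1.37, SE 0.38, adjusted p = 0.015). KO replicate 2 was near the WT values, while replicates 1 and 3 were far below them. Ndufv1, the subunit that binds FMN and NADH, was at 1.3, 0.74 and 1.1 FPKM in KO 2-cell embryos, against 4.2, 2.36 and 2.09 FPKM in WT 2-cell embryos (log2 difference -0.90, SE 0.27, adjusted p = 0.021). Its partner Ndufv2, an iron-sulfur protein, was at 10.8, 12.4 and 8.33 FPKM in KO 2-cell embryos, against 19.8, 24.1 and 21.9 FPKM in WT 2-cell embryos (log2 difference -1.0, SE 0.22, adjusted p = 0.005). Ndufs1, the largest subunit, was low in both genotypes, at 0.653, 0.265 and 0.208 FPKM in KO 2-cell embryos, against 1.78, 1.85 and 1.75 FPKM in WT 2-cell embryos (log2 difference -1.04, SE 0.22, adjusted p = 0.0044). These 4 genes did not overlap between genotypes. Under median-of-ratios scaling Ndufs7, Ndufv1 and Ndufv2 kept their sign without passing (adjusted p = 0.062, 0.0997 and 0.11), and without WT replicate 1 Ndufs7 and Ndufv1 did not pass (0.061 and 0.084). Ndufs7 also missed without KO replicate 3 (0.053), and Ndufv1 without KO replicate 2 (0.068). Ndufs1 could not be tested when a WT library was left out, since no KO library reached 1 FPKM. Ndufs3, the remaining core gene, was not tested, at 0.403 to 0.609 FPKM in KO and 0.448 to 0.648 FPKM in WT embryos, and its copy Gm12251 held 95.8% of their joint FPKM in KO and 95.2% in WT. Gene and copy together stood at 13.4, 11.9 and 10.3 FPKM in KO and 13.2, 13.1 and 8.54 FPKM in WT embryos. That sum was tested and not called (log2 difference 0.05, adjusted p = 0.88, limma).

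Among the accessory subunits of the matrix arm, Ndufa9, which binds a nucleotide at the junction of the arms, showed the largest log2 difference of all members, while Ndufc1 had the lowest ratio of KO to WT means. It stood at 8.45, 4.69 and 7.97 FPKM in KO 2-cell embryos, against 56.9, 43.2 and 43.1 FPKM in WT 2-cell embryos, a KO mean of 14.7% of the WT mean (log2 difference -2.62, SE 0.26, adjusted p = 0.00028). Ndufa2, of the NADH-binding module, stood at 46.5, 37.7 and 37 FPKM in KO 2-cell embryos, against 116, 91.7 and 127 FPKM in WT 2-cell embryos (log2 difference -1.44, SE 0.20, adjusted p = 0.00079). All KO libraries of both genes lay below all WT libraries. Ndufa12 and Ndufv3, also of the NADH end, were lower too (log2 differences -1.26 and -0.82). Ndufa12 reached 1 FPKM in no KO library, so its direction was fixed by the filter. Ndufa12 is a low gene whose copy Gm15920 held 90.5% of the joint FPKM in KO and 89.3% in WT embryos, and the sum over both was 3.91, 6.9 and 2.7 FPKM in KO and 25.9, 20.7 and 19.5 FPKM in WT embryos (log2 difference -2.13, adjusted p = 0.00082).

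In the membrane arm Ndufc1, a small membrane-embedded subunit, had 2.31, 1.79 and 1.51 FPKM in KO 2-cell embryos, against 16.6, 10.9 and 11.8 FPKM in WT 2-cell embryos, with a KO mean of 14.2% of the WT mean (log2 difference -2.29, SE 0.24, adjusted p = 0.00034). Ndufb7, an intermembrane-space subunit at the far end of the arm, had 0.903, 0.897 and 0.676 FPKM in KO 2-cell embryos, against 5.75, 4.2 and 3.44 FPKM in WT 2-cell embryos (log2 difference -1.56, SE 0.24, adjusted p = 0.0011). Ndufb9, which binds a second copy of the acyl carrier protein, had 11.3, 15.6 and 7.96 FPKM in KO 2-cell embryos, against 28.6, 27.6 and 33.5 FPKM in WT 2-cell embryos (log2 difference -1.33, SE 0.26, adjusted p = 0.003). None of these 3 genes overlapped between genotypes. Ndufb7 reached 1 FPKM in no KO library, so its direction was fixed by the filter. It could not be tested when a WT library was left out. Ndufb11 (chromosome X, 20615326 to 20617619, - strand) had 62.4, 57.2 and 58 FPKM in KO 2-cell embryos, against 102, 113 and 143 FPKM in WT 2-cell embryos (log2 difference -0.98, SE 0.19, adjusted p = 0.0031), also with no overlap, but it did not pass under median-of-ratios scaling (-0.43, adjusted p = 0.12). Ndufa1 was lower again, at 18.6, 10.4 and 9.3 FPKM in KO 2-cell embryos, against 26.4, 26.3 and 60.8 FPKM in WT 2-cell embryos (log2 difference -1.44, SE 0.38, adjusted p = 0.012), with a difference of -0.91 and no call under median-of-ratios scaling. Ndufa11, Ndufb10 and Ndufc2 completed the 8, with log2 differences of -0.95, -1.10 and -0.86.

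The 3 members that were higher in KO embryos were Ndufa10, Ndufs6 and Ndufa5. Ndufa10, a membrane-arm subunit with a nucleoside kinase fold, was at 11.2, 8.0 and 9.68 FPKM in KO 2-cell embryos, against 4.11, 5.64 and 2.25 FPKM in WT 2-cell embryos (log2 difference 1.13, SE 0.30, adjusted p = 0.012). Ndufs6, a zinc-binding subunit of the matrix arm, was at 4.98, 5.88 and 4.71 FPKM in KO 2-cell embryos, against 2.87, 1.89 and 3.2 FPKM in WT 2-cell embryos (log2 difference 0.77, SE 0.24, adjusted p = 0.023), and Ndufa5, another matrix-arm subunit, at 6.12, 6.17 and 6.03 FPKM in KO 2-cell embryos, against 4.08, 3.5 and 3.38 FPKM in WT 2-cell embryos (log2 difference 0.61, SE 0.20, adjusted p = 0.032). The KO libraries lay above the WT libraries in all 3. Ndufs6 summed with its copy Ndufs6b differed by 0.23 (adjusted p = 0.51). Ndufs6 alone did not pass without WT replicate 2, KO replicate 1 or KO replicate 2 (adjusted p = 0.076, 0.0501 and 0.073), and Ndufa5 did not pass when any single library was left out (adjusted p = 0.053 to 0.081). Of the 14 members tested and not called, Ndufb6 was at 133, 148 and 117 FPKM in KO 2-cell embryos, against 135, 120.4 and 181 FPKM in WT 2-cell embryos, and its interval for the difference ran from -0.59 to 0.36. Ndufa4l2, Ndufb4 and Ndufs3 were too low to test.

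**Figure D3:**
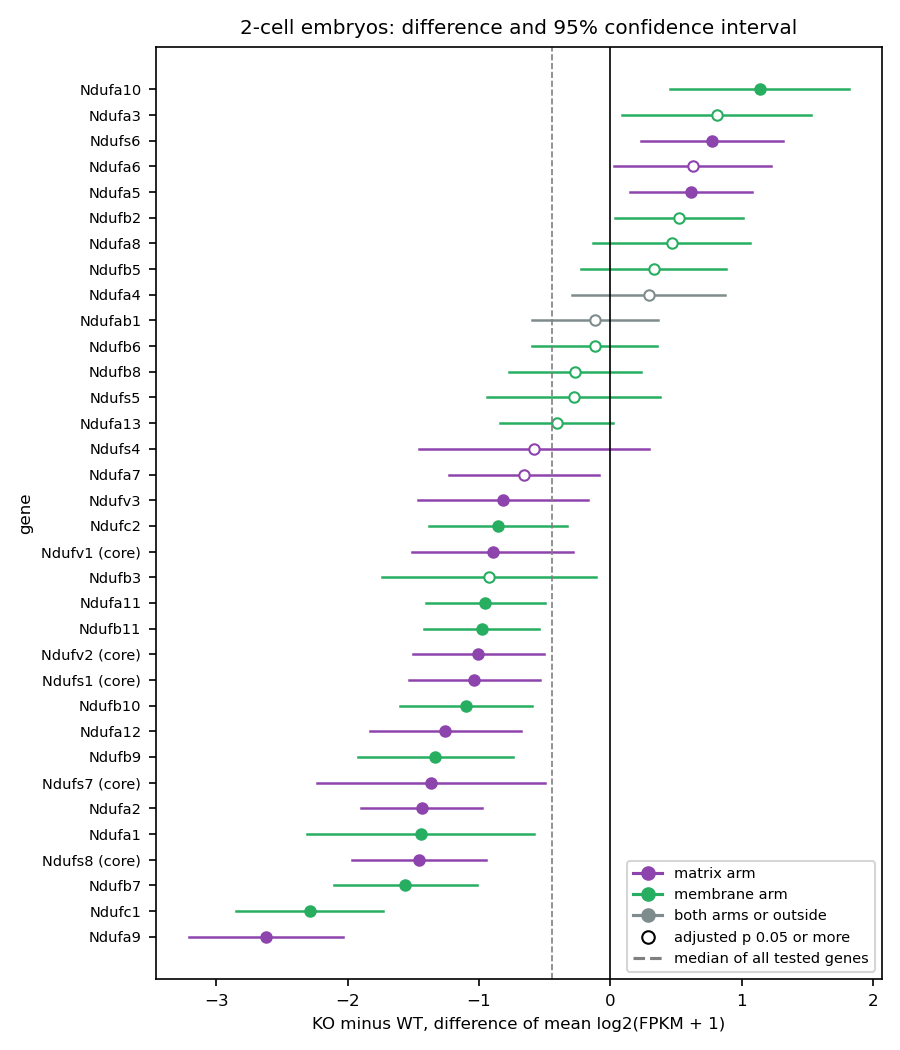
Log2 difference (KO minus WT) of log2(FPKM + 1) in 2-cell embryos for 34 tested members, with 95% confidence intervals; purple marks the matrix arm, green the membrane arm and grey Ndufab1 and Ndufa4, and open points have an adjusted p of 0.05 or more. The differences run from 1.13 for Ndufa10 to -2.62 for Ndufa9, and the dashed line is the median of all tested genes, -0.44.

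Other measures moved with the genotype in the same 2-cell libraries. The summed level of the oocyte markers was 15567 to 21813 FPKM in KO and 5216 to 6690 FPKM in WT embryos, and that of the 2-cell markers 1084 to 1503 FPKM in KO and 736 to 907 FPKM in WT embryos. The markers of granulosa and cumulus cells summed to 9.03 to 12.6 FPKM in KO and 26.7 to 41.9 FPKM in WT embryos, with 3 of 17 in KO and 2 of 17 in WT at a mean of 1 FPKM or more. The markers of blood, stroma and oviduct summed to 15.7 to 23.8 FPKM in KO and 49.1 to 79.9 FPKM in WT embryos, with Hba-a1, Cd68 and Pecam1 at 1 FPKM or more in both. The 6 markers of sperm and spermatids summed to 3.00 to 4.49 FPKM in KO and 2.31 to 2.81 FPKM in WT embryos. The number of genes at 1 FPKM or more was 11736 to 12037 in KO and 14128 to 14561 in WT embryos. Their part in the result was not tested.

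Calls at the 2-cell stage were mixed among members with the letters searched in the promoters. Of the 7 members with the YY1 letters, Ndufa9, Ndufc1 and Ndufs7 were lower, Ndufs6 was higher, and Ndufa3, Ndufb8 and Ndufs4 were not called. Among all tested genes 40.3% were lower and 14.0% higher, so 3 lower of 7 was near the share of all genes. Ndufs6 was not called when summed with its copy (log2 difference 0.23, adjusted p = 0.51, limma). Of the 4 with the ETS letters, Ndufb7 and Ndufs8 were lower, Ndufb6 was not called and Ndufs3 was not tested. The 1 with the NRF1 motif, Ndufa11, was lower. Of the 10 with CCAAT, 4 were lower, 1 was higher, 4 were not called and 1 was not tested.

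Changes between stages were then compared within each genotype. From GV to MII the members fell almost without exception: 36 of 37 tested in KO and 37 of 38 in WT were called lower, where 48.2% of all tested genes in KO and 52.8% in WT were lower, and 69.0% in KO and 84.0% in WT changed in either direction. In 36 members in KO and 37 in WT all MII libraries lay below all GV libraries, against 49.1% of all tested genes in KO and 53.4% in WT. The 14 members not tested between genotypes at MII were under 1 FPKM in every WT MII library. In WT they passed the filter through the GV libraries alone and could only come out lower. In KO this held for those tested among them, Ndufs1 and Ndufs6 apart. The median change was -3.34 in KO and -3.06 in WT, against -0.61 in KO and -0.50 in WT over all genes. At the median over members, MII oocytes held 3.42% of the GV level in KO and 5.98% in WT. The 5 largest falls on the log2(FPKM + 1) scale were in Ndufa9, Ndufa2, Ndufb11, Ndufa8 and Ndufs7 in both genotypes. Ndufa9 stood at 1.0, 1.67 and 2.23 FPKM in KO MII oocytes, against 158, 168 and 213 FPKM in KO GV oocytes (log2 difference -6.11, SE 0.25, adjusted p = 3.4e-06). In WT it stood at 1.16, 1.48 and 1.27 FPKM at MII, against 146, 137 and 139 FPKM at GV (log2 difference -5.94, SE 0.09, adjusted p = 8.3e-09).

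Ndufa10 in both genotypes and Ndufa4 in WT lost least. Ndufa10 averaged 80.6% of its GV level in KO MII oocytes and 82.5% in WT MII oocytes, with log2 changes of -0.26 in KO (adjusted p = 0.4) and -0.26 in WT (adjusted p = 0.0454). Ndufa4 averaged 32.8% of its GV level in KO and 84.1% in WT MII oocytes (-1.58, adjusted p = 0.018 in KO and -0.27, adjusted p = 0.15 in WT). The difference between genotypes in this change did not pass for Ndufa4 (log2 difference -1.32, SE 0.56, adjusted p = 0.72). For Ndufa1 it did: the fall was larger in KO (-4.70) than in WT (-2.21, interaction log2 difference -2.49, SE 0.40, adjusted p = 0.041). That was 1 of 38 members, against 0.12% of all tested genes, and the call was lost under median-of-ratios scaling and without WT GV replicates 1, 2 and 3, KO GV replicate 2, WT MII replicates 1 and 2 and each KO MII replicate.

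From MII to PN5 most calls in KO were lower and all calls in WT were higher. In KO, 1 of 25 tested members was higher and 5 were lower, against 22.5% and 10.4% of all tested genes, and in WT 6 of 25 were higher and 0 lower, against 9.8% and 4.44%. The 5 that fell in KO were Ndufb3, Ndufs4, Ndufa1, Ndufs5 and Ndufb6, by log2 changes of -1.49 to -0.62. Those that rose in WT included Ndufa8, Ndufb11, Ndufs6, Ndufb2 and Ndufb5, by 0.95 to 1.47. Ndufs6 was under 1 FPKM in every WT MII library and could only come out higher. The interaction was called for 3 of 27 members, all lower, against 4.59% of all tested genes lower and 7.45% in either direction.

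Those 3 were membrane-arm subunits. Ndufb6 had 39.1, 33.8 and 38 FPKM in KO zygotes against 45.5, 70.7 and 57.8 FPKM in KO MII oocytes, and 70.5, 55.9 and 50.2 FPKM in WT zygotes against 42, 35.7 and 36.3 FPKM in WT MII oocytes (interaction log2 difference -1.23, SE 0.27, adjusted p = 0.0446). In KO all zygotes lay below all MII oocytes, and in WT all lay above. Ndufb2 had an interaction of -1.20, adjusted p = 0.0452, and Ndufb3 one of -1.92, adjusted p = 0.0498. The count was 0 after removing a length trend, and between 0 and 11 when single libraries were left out: 11 without WT PN5 replicate 3, 10 without KO MII replicate 1 and 0 without any other.

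From PN5 to the 2-cell stage more members rose than fell in both genotypes. In KO 25 of 31 tested were higher and 2 lower, against 43.8% and 26.8% of all tested genes (70.6% in either direction), and in WT 19 of 34 were higher and 3 lower, against 48.0% and 14.8% (62.8% in either direction). In WT, Ndufa7, Ndufa12, Ndufb7, Ndufb10, Ndufc1, Ndufv1 and Ndufv3 were under 1 FPKM in every zygote library. They passed the filter through the 2-cell libraries alone and could only come out higher. In KO the same held for Ndufa3, Ndufa7, Ndufb10, Ndufc1 and Ndufv3. Ndufs1, 1 of the 2 lower in KO, was under 1 FPKM in every KO 2-cell library. It passed the filter through the zygote libraries alone and could only come out lower. All 2-cell libraries lay above all PN5 libraries for 25 members in KO and 21 in WT, against 46.9% of all tested genes in KO and 50.3% in WT. On the log2(FPKM + 1) scale the largest rises in KO were in Ndufb11 (2.51), Ndufa2 (2.41), Ndufs8 (2.37), Ndufa11 (2.35) and Ndufa1 (2.34). In WT they were in Ndufs8 (4.06), Ndufa9 (3.96), Ndufc1 (3.63), Ndufa2 (3.25) and Ndufb11 (2.79). Ndufs8 had 41, 29.2 and 25.9 FPKM in WT 2-cell embryos, against 1.15, 0.967 and 0.748 FPKM in WT zygotes. As a ratio of means the WT rise was 33.5-fold for Ndufs8 and 91.1-fold for Ndufc1, which was listed at 0 in 2 of the 3 WT zygote libraries. Ndufs8 was 1 of 2 members, with Ndufb6, whose WT 2-cell mean exceeded the WT GV mean, and no member did so in KO. Median-of-ratios scaling gave 20 higher and 2 lower in KO, and 15 higher and 5 lower in WT. The WT total was 12 to 13 without any one of the WT 2-cell libraries, with fewer members passing the filter.

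The size of this last change differed between genotypes for 20 of 35 members, 11 with an interaction above 0 and 9 below it. Among all tested genes 45.8% were called, 13.8% higher and 31.9% lower. The 9 lower interactions included Ndufc1 (-2.35, adjusted p = 0.00019), Ndufa9 (-2.31, adjusted p = 0.00072), Ndufs8 (-1.68, adjusted p = 0.0017) and Ndufb7 (-1.28, adjusted p = 0.0022). The 11 higher ones were led by Ndufa4 (1.76, adjusted p = 0.0016), Ndufa5 (1.36, adjusted p = 0.0052), Ndufb2 (1.14, adjusted p = 0.0055) and Ndufa6 (1.28, adjusted p = 0.014), all 4 with lower means in KO than in WT zygotes. These interactions share the PN5 libraries with the PN5 comparison above, so that a low KO zygote value enters both. The core genes lay on 1 side: 4 of 6 tested were called lower and 0 higher. Ndufb7, of the membrane arm, and Ndufa12, of the matrix arm and also among the 9 lower, reached 1 FPKM in this fit only in the WT 2-cell libraries. Both passed the filter through that group alone, which favoured a lower interaction, so their calls carry little weight.

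**Figure D4:**
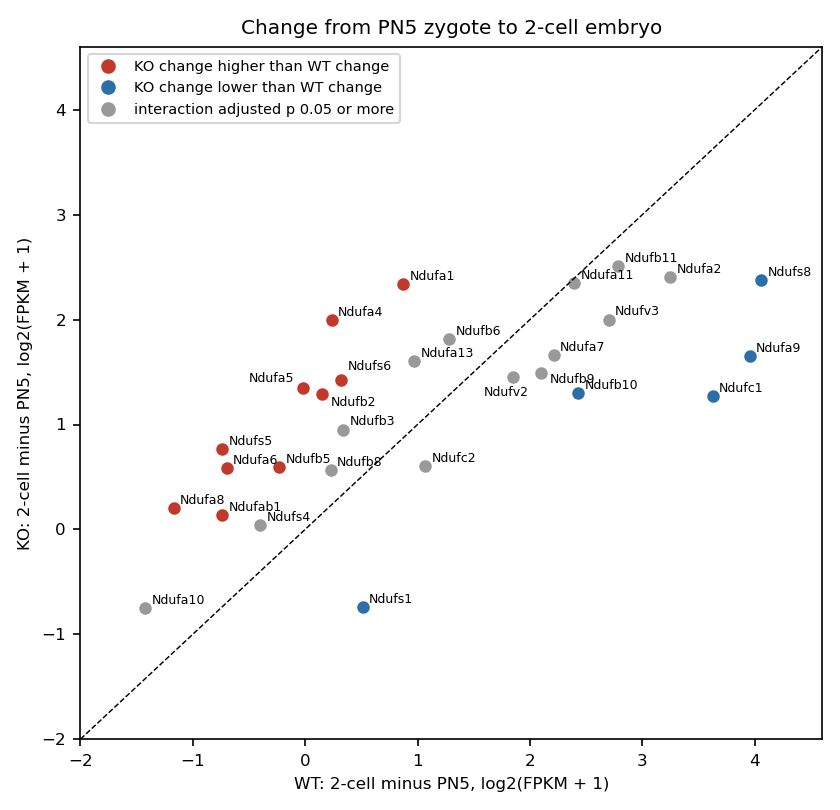
Change from PN5 to the 2-cell stage in KO (vertical) against WT (horizontal), both as differences of mean log2(FPKM + 1), for 29 members tested in both genotypes; the dashed line marks equal change, and colour marks members with a called interaction (red higher, blue lower in KO). Ndufs8, Ndufa9 and Ndufc1 lie below the line, with changes of 3.63 to 4.06 in WT and 1.27 to 2.37 in KO, and Ndufa1 and Ndufa4 lie above it.

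The partners encoded by mitochondrial DNA followed another course. The 7 mt-Nd genes summed to 1993 ± 905 FPKM in KO and 1933 ± 90.8 FPKM in WT GV oocytes, and to 8962 ± 178 FPKM in KO and 5802 ± 594 FPKM in WT MII oocytes (SD, n = 3 each). All 7 rose from GV to MII in both genotypes, with a median log2 change of 2.25 in KO and 1.62 in WT, while the nuclear members fell. Among all tested genes 20.8% in KO and 31.1% in WT were called higher in that step. At MII 2 of the 7, mt-Nd1 (0.65, adjusted p = 0.041) and mt-Nd4 (0.79, adjusted p = 0.041), were called higher in KO, against 0.32% of all tested genes. In all 7 the KO libraries lay above the WT libraries, against 8.35% of all tested genes. At PN5 none of the 7 was called (0 with an unadjusted p under 0.05), where 6.1% of all tested genes were. WT replicate 1 had 26541 FPKM at PN5 against 7495 FPKM in the lowest WT library. At the 2-cell stage the 7 genes summed to 35727 ± 1379.6 FPKM in KO and 38634 ± 8685 FPKM in WT embryos. There mt-Nd6 was lower (-0.64, adjusted p = 0.023), 1 of 7 tested, against 40.3% of all tested genes lower. The mt-Nd sum was 77.8 ± 6.78 times the nuclear sum in KO and 49.4 ± 4.44 times in WT 2-cell embryos, without overlap.

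**Figure D5:**
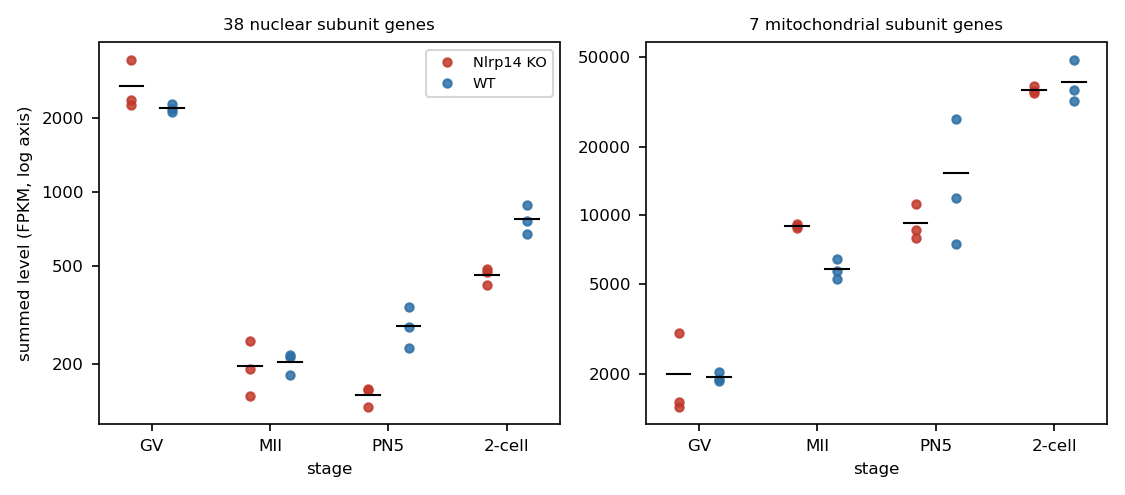
Summed FPKM in each library (points) and group mean (line) on log axes, for the 38 nuclear genes (left) and the 7 mitochondrial mt-Nd genes (right), KO in red left of WT in blue. The nuclear sum drops from GV to MII and the mitochondrial sum rises, and the KO nuclear sums lie below all WT sums at PN5 and the 2-cell stage.

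The assembly factors, proteins that help build complex I without staying in it, were read from a list of 21 symbols, of which 20 matched. At PN5 4 of 9 tested were lower in KO and 0 higher, against 5.53% of all tested genes lower and 0.569% higher. Ndufaf2, an assembly factor related to the subunit Ndufa12, had 9.97, 9.38 and 6.35 FPKM in KO zygotes, against 31.1, 26.3 and 18.3 FPKM in WT zygotes (log2 difference -1.45, SE 0.27, adjusted p = 0.037), and Dmac1, Ndufaf8 and Nubpl had differences of -1.37, -0.96 and -1.09. At the 2-cell stage 9 of 16 were lower and 2 higher, against 40.3% and 14.0% of all tested genes, with a median of -1.14 against -0.44. Among those tested, Ndufaf6 reached 1 FPKM in no KO library, so its direction was fixed by the filter. Ndufaf5, whose human protein hydroxylates an arginine of NDUFS7, had 3.09, 3.28 and 1.98 FPKM in KO 2-cell embryos, against 36, 18.8 and 21.5 FPKM in WT 2-cell embryos (log2 difference -2.77, SE 0.29, adjusted p = 0.00033). Next by adjusted p came Lyrm2 (-2.42), Ndufaf7 (-1.59), an arginine methyltransferase, and Ndufaf1 (-1.89). No KO library of these 4 genes reached a WT library. Ndufaf4 and Dmac1 were higher (log2 differences 0.76 and 1.05).

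Of 12 regulators of mitochondrial biogenesis, 8 were tested in 2-cell embryos, and 6 were lower in KO and 0 higher, against 40.3% and 14.0% of all tested genes. Gabpa, the DNA-binding subunit of GA-binding protein, had 23.5, 17.2 and 28.2 FPKM in KO 2-cell embryos, against 139.9, 104 and 92.1 FPKM in WT 2-cell embryos (log2 difference -2.24, SE 0.25, adjusted p = 0.00038). Yy1 had 2.67, 3.31 and 3.43 FPKM in KO 2-cell embryos, against 13.8, 11.4 and 11.4 FPKM in WT 2-cell embryos (log2 difference -1.67, SE 0.21, adjusted p = 0.00057). Both genes had all KO libraries below all WT libraries, and both stayed under 1 FPKM in every library of the earlier stages. Pprc1, a coactivator, and Tfb2m, a factor of mitochondrial transcription, differed by -1.68 and -1.24. At GV, MII and PN5 none was called, with 0, 1 and 1 at an unadjusted p under 0.05.

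Neighbouring genes limit some of these values. Exons of 17 members overlap another gene, and the sources used here do not say whether counting used strand. The longest shared stretches were 530 nt between Ndufb5 and Mrpl47, 375 nt between Ndufa13 and Tssk6, 320 nt between Ndufs1 and Ino80dos and 269 nt between Ndufab1 and Gm44986, all on opposite strands. Mrpl47 reached 40.4 FPKM, above every value of Ndufb5, and Tssk6 reached 12.9 FPKM. On the same strand Ndufb2 shares 145 nt with Gm42420 (at most 3.22 FPKM) and Ndufb8 134 nt with Gm20538 (at most 3.25 FPKM). On the other strand Ndufb2 shares 146 nt with Braf (at most 2.61 FPKM) and 156 nt with Gm16272 (at most 1.32 FPKM). Among the genes named at the 2-cell stage, Ndufb11 shares 117 nt with Rbm10 (at most 8.80 FPKM in any library), Ndufs6 shares 30 nt with Mrpl36 (at most 13.4 FPKM) and Ndufa2 shares 66 nt with Tmco6 (at most 9.78 FPKM). Ndufb9 shares 193 nt with Gm49356 on the same strand, and Ndufa9, Ndufa11 and Ndufb6 share 67, 70 and 257 nt with genes on the other strand, none of these 4 neighbours above 2.08 FPKM in any library. Ino80dos, beside Ndufs1, reached 3.61 FPKM at most. Every p-value here rests on the variation among 3 pooled samples per group.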

How the data were processed

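RNA of 24 samples (8 groups of 3, 5 oocytes or embryos a sample) was turned into cDNA with a SMART-Seq HT kit, per the labels' protocols. The authors deposited FPKM values per Ensembl gene, 1 file a library. StringTie and GRCm38 were used, per the submitters' processing notes; for the versions, aligner, filters and strand setting the sources used here give nothing. Summed FPKM per library was not constant, and no scaling between libraries was stated.

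Groups and replicate numbers came from the labels. Of 55487 genes, 55227 matched GENCODE M21 and 260 did not. The members and gene lists, and the motifs, were chosen with earlier results of these data known. Genes at 1 FPKM or more in at least 3 libraries of a comparison were tested with limma 3.58.1 (R 4.3.3; moderated test with trend and robust settings, two-sided) on log2(FPKM + 1), which understates changes of low genes. Differences are log2 on that scale, p-values were adjusted by the Benjamini-Hochberg method over all tested genes, and a gene was called at an adjusted p under 0.05. KO and WT were compared at each stage, neighbouring stages within each genotype, and interactions of genotype with stage in 4 groups. The fit was tested on simulated data. Implied depth came from steps between low values of 34257 genes with 1 transcript: 98.8% to 99.2% of values up to 30 fragments lay within 0.02 of a whole number. No count test was run on them.

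Members named with values were those called between genotypes (the 8 with the smallest p in a direction where more were called), the core genes at the 2-cell stage, the 5 largest called stage changes per direction, the 4 interactions with the smallest p per direction, and up to 4 called genes by p of each other list. Ndufb5 and Ndufb8 at GV, Ndufb2, Ndufb3 and Ndufb6 at MII, and Ndufb6 at the 2-cell stage were named after their values were seen, as were genes given to complete a count. Copies were found with blastn 2.17.0 on transcripts (95% identity over 200 nt). Same-numbered KO and WT samples had correlations of deviations from the group means of -0.21 to 0.21, so the numbers were not taken to pair samples. Alternatives were a pseudocount of 0.1, no filter, median-of-ratios scaling, TPM, removed length or length and GC trends, a replicate block, 1 fit of all libraries, each library left out and, added after the data were seen, copies summed into their genes. 1 member is not reported here by name.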

Additional observations from a re-analysis of the deposited data

Results flagged for a closer look

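Each value here is a log2 difference between genotypes in a stage change (KO change minus WT change, limma on log2(FPKM + 1)) that passed an adjusted p of 0.05 and is among the 4 smallest p-values of its direction. Between MII and GV, Ndufa1 differed by -2.49. Between PN5 and MII, Ndufb6 differed by -1.23, Ndufb2 by -1.20 and Ndufb3 by -1.92.

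Between the 2-cell stage and PN5, Ndufa4 differed by 1.76, Ndufa5 by 1.36, Ndufb2 by 1.14 and Ndufa6 by 1.28, all with lower means in KO than in WT zygotes. Ndufc1 differed by -2.35, Ndufa9 by -2.31, Ndufs8 by -1.68 and Ndufb7 by -1.28. Ndufb7 passed the filter of that fit through the WT 2-cell libraries alone. The PN5 libraries, which both interactions of Ndufb2 share, enter them with opposite signs.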

How the results depend on the processing

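All values are numbers of members called. KO against WT at MII gave 0 with no filter. At PN5 the 4 calls became 2 with a pseudocount of 0.1, 1 with no filter, 1 under median-of-ratios scaling, 1 with TPM and 13 with all 24 libraries in one fit. From MII to PN5, KO gave 3 with no filter and 10 with copies summed, and WT gave 2 with no filter and 3 with TPM. The interaction of genotype with MII against GV gave 0 with no filter and 0 under median-of-ratios scaling. That with PN5 against MII gave 0 with a pseudocount of 0.1, 0 with no filter, 0 with TPM, 0 without a length trend, 0 without length and GC trends, and 5 with copies summed. The cause was not tested.

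With the replicate block, the numbers were 0 at PN5 for KO against WT, 0 for the interaction of genotype with MII against GV and 0 for that with PN5 against MII, and within 1.5 times of the unblocked number elsewhere.

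With 1 library left out, KO against WT ranged from 0 to 2 at GV, 0 to 4 at MII, 0 to 15 at PN5 and 13 to 19 at the 2-cell stage. MII against GV ranged from 25 to 36 in KO and 22 to 37 in WT, PN5 against MII from 3 to 10 in KO and 1 to 10 in WT, and 2cell against PN5 from 18 to 24 in KO and 12 to 23 in WT. Interactions ranged from 0 to 1 (MII against GV), 0 to 11 (PN5 against MII) and 14 to 21 (2cell against PN5). With 2 libraries in a group, genes expressed in that group alone no longer pass the filter. Of 294 repeats of the 20 named KO against WT differences, 234 kept sign and call, 60 kept the sign without the call, and 0 changed sign. Ndufb7 and Ndufs1 had 3 repeats with 1 library left out, against 6 for each other difference. They could not be tested when a WT 2-cell library was left out, and such fits are not among the 294. Their direction in the main fit was fixed by the filter, so their repeats within the 294 say little about the sign. All 20 differences had been called in these same libraries. The filter on low values left 14 members at MII and 12 at PN5 untested between genotypes.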
